A study of Homo sapiens with 6 samples.

Results

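Smooth muscle actin and the proteins that work beside it form the contractile apparatus by which a fibroblast that has become a myofibroblast is recognised. The genes described here are *ACTA2*, *ACTG2*, *TAGLN*, *CNN1*, *MYL9*, *TPM1*, *TPM2*, *CALD1*, *LMOD1* and *MYH11*, chosen by name as *ACTA2* and the contractile genes usually measured with it. The rule used no measured value, but the choice was made with earlier results of these libraries known. They are 10 of the 58676 gene identifiers counted, and 9 of them were among the 19072 genes with enough counts to test, the exception being *MYH11*.

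In MRC5, a human fetal lung fibroblast line, RNA was sequenced after 24 h in conditioned media (CM). In the control ATII CM group (3 libraries) the media came from untreated ATII ER:KRASV12 cells, an alveolar type II epithelial line in which RAS fused to an estrogen receptor domain can be switched on by 4-hydroxytamoxifen (4-OHT). In the 4-OHT ATII CM group (3 libraries) the epithelial cells had been given 4-OHT for 24 h before the media were taken. The comparison asks which fibroblast genes differ in level when the epithelial cells that conditioned the medium had active RAS. All libraries came from 1 fibroblast line, and no TGF-β was added in either group. Whether any 4-OHT was carried over with the medium is not given in the sources used here, so effects of residual drug and of epithelial factors cannot be told apart. The labels do not say whether the libraries of a group were separate cultures, so the p values measure only the spread between these samples, which may be technical.

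In a smooth muscle cell or myofibroblast, actin filaments built of α- and γ-smooth muscle actin slide along myosin filaments when the regulatory light chain of myosin is phosphorylated. Tropomyosins lie along the actin filament, caldesmon, calponin and transgelin bind it, and leiomodin starts new filaments. Most of these genes are controlled by serum response factor (SRF), which binds CArG boxes in their promoters together with myocardin or the related factors MRTF-A and MRTF-B. TGF-β is the classical inducer of this set in lung fibroblasts, and α-smooth muscle actin is the standard marker of the myofibroblasts that accumulate in fibrotic lung.

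Promoter sequence was available in RefSeq (GRCh38.p14) for 7 of the 10 genes, as windows of 300 bases that run from 250 bases before to 50 bases after a start site. *TAGLN*, *MYL9* and *MYH11* were not matched. The windows shown are those of *ACTA2* and *ACTG2*, the 2 smooth muscle actins, where CArG boxes or near matches stand in capitals, and that of *LMOD1*, the gene of the set that changed, which holds neither. Letters run 5′ to 3′ on the strand of the gene, and a near match differs from a CArG box by 1 base in the 6-base core of A and T. The box reads the same on both strands, so 1 search covers both.
ACTA2, chr10:88952724-88953023, minus strand: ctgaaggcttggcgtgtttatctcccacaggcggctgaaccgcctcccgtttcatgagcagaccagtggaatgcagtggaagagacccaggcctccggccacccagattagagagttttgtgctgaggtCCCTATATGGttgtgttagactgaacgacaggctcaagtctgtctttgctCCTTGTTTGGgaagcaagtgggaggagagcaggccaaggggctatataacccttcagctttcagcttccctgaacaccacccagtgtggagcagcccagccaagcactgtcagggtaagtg
ACTG2, chr2:73892758-73893057, plus strand: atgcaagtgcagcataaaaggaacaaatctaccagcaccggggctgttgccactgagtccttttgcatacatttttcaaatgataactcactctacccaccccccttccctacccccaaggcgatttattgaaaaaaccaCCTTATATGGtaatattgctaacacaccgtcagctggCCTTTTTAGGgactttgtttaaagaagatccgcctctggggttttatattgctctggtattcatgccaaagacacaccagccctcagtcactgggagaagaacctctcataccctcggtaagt
LMOD1, chr1:201946499-201946798, minus strand: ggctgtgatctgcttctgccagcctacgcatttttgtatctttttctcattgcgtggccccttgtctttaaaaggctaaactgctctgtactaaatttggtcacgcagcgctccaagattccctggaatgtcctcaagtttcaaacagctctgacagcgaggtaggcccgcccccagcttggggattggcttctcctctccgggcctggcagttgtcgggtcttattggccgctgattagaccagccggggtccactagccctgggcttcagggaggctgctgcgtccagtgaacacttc

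In *ACTA2* the 2 near matches, CCCTATATGG and CCTTGTTTGG, began 121 and 71 bases before the start site. A window at another *ACTA2* start site, chr10:88991288-88991587, held neither a box nor a near match and is not shown. In *ACTG2* the 2 boxes, CCTTATATGG and CCTTTTTAGG, began 110 and 73 bases before it and had no change in the core. Of the 12 windows of these genes, 1 held a CArG box and 3 held a box or a near match. The third was a *CALD1* window with CCTAAAGAGG, chr7:134711249-134711548, which lies before the first base of the gene as counted. The other *CALD1* windows held neither. Among all 35116 windows, 1.29% held a box and 8.13% a box or a near match. A match describes the letters of the window and says nothing of binding in these cells.

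Markers of fibroblasts and of several other cell types were read to check the label of the cells. All 9 fibroblast markers were at 1 TPM (a level per exon length, scaled to the same total in every library) or more, and their summed level was 18000 to 19650 TPM in control ATII CM and 19160 to 19400 TPM in 4-OHT ATII CM. Of the 9 mature smooth muscle markers 7 were at 1 TPM or more (sum 867 to 886 TPM against 865 to 872 TPM). *ACTG2* (567 TPM in control ATII CM), *CNN1* (134 TPM) and *LMOD1* (114 TPM) are genes of the described set and gave most of that sum. The highest of the others was *SMTN* with 32.5 TPM in control ATII CM, so the sum is no separate check of the label. *KCNMB1* was under 0.1 TPM, as was *MYH11*, also of the set, whose counts cannot be safely read as a level for the reason given with that gene. Pericyte markers were also present, 4 of 5 at 1 TPM or more (sum 133 to 145 TPM against 134 to 135 TPM). Of 11 skeletal and cardiac muscle markers, 1 reached 1 TPM, and *MYH1*, *MYH6*, *MYH7*, *MYOD1* and *MYOG* had no count. Of the 8 epithelial markers 4 did (sum 99.9 to 106 TPM against 92.4 to 103 TPM), with *CDH1*, *SFTPB* and *SFTPC* under 0.1 TPM, and of the endothelial and the immune markers none did. Some markers differed between the groups: 5 of the 9 fibroblast markers (*COL3A1*, *DCN*, *LUM* and *PDGFRA* higher, *VIM* lower), 3 of the 7 smooth muscle markers tested (*MYOCD* and *LMOD1* higher, *SMTN* lower) and 2 of the 5 pericyte markers (*RGS5* by 43.1%, *CSPG4* by -19.8%) passed an adjusted p of 0.05 in edgeR, beside 5.72% of all genes, and their part in the results was not tested. Library totals were 17691849 to 26389449 counts. Control ATII CM replicate 2 stood apart on the first principal component, which held 24.5% of the variance.

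*ACTA2* encodes α-smooth muscle actin (ENSG00000107796, chr10:88935074-88991339, minus strand, GRCh38). Its level was 369, 379 and 391 CPM (read counts relative to the TMM-scaled library total) in the 3 control libraries and 389, 408 and 399 CPM in the 3 libraries of 4-OHT ATII CM. The control library with the most lay just above the 4-OHT library with the least, so the groups overlapped. The mean was 379.6 ± 11.1 CPM (SD, n = 3) against 399 ± 9.62 CPM (SD, n = 3), and the fitted difference was 5.1% with a 95% interval from 0.0521% to 10.4%. On the log2 scale it was 0.072 (standard error 0.033), which missed the threshold of 0.05 after adjustment over all genes tested (adjusted p = 0.282, edgeR quasi-likelihood test; unadjusted p = 0.0479 in the same edgeR fit). A rise above 10.4% thus lay outside the interval, and a difference of 0 lay just below it. Its libraries held 6774 to 10499 counts each.

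Part of the *ACTA2* exons is shared with other genes on the opposite strand, and the library kit does not mark strand. *ACTA2-AS1*, an antisense RNA, shares 516 bases (17.3% of the *ACTA2* exons) and *FAS*, the death receptor gene, shares 380 bases (12.8%). *ACTA2-AS1* had 289 counts and *FAS* 6164 counts over the 6 libraries together. *FAS* stood at 44 ± 0.477 CPM in the control libraries and 47.2 ± 0.997 CPM in the others (SD, n = 3), a log2 fold change of 0.10 (adjusted p = 0.216, edgeR). Reads from the shared bases cannot be assigned to either gene.

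*ACTG2*, the γ-smooth muscle actin of gut muscle, was not higher on average (ENSG00000163017, chr2:73892314-73919865, plus strand). It was at 524, 520.3 and 543 CPM in control ATII CM and at 514, 535 and 518 CPM in 4-OHT ATII CM. High and low values fell in both groups. The fitted difference was -1.26% with a 95% interval from -5.68% to 3.37% (adjusted p = 0.836, edgeR).

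Only levels per exon length can be compared between genes, and on that scale both smooth muscle actins were minor actins of these fibroblasts. *ACTG2* stood at 567 ± 13 TPM and *ACTA2* at 521 ± 12.4 TPM in control ATII CM (SD, n = 3). Cytoplasmic β-actin (*ACTB*) made up 54% of the summed actin TPM and cytoplasmic γ-actin (*ACTG1*) 39.4%. The share of *ACTA2* was 3.16% ± 0.0985 in control ATII CM and 3.27% ± 0.00785 in 4-OHT ATII CM, and that of *ACTG2* was 3.44% ± 0.146 and 3.34% ± 0.0322 (SD, n = 3). The skeletal and cardiac actins *ACTA1* and *ACTC1* were each below 0.002% of the sum. None of the 5 actin isoforms tested passed the threshold with edgeR, DESeq2 or limma-voom, beside 5.72% of all genes with edgeR, 1 (*ACTA2*) had an unadjusted p under 0.05, beside 17.3% of all genes, and their median log2 fold change was 0.032.

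**Figure D1:**
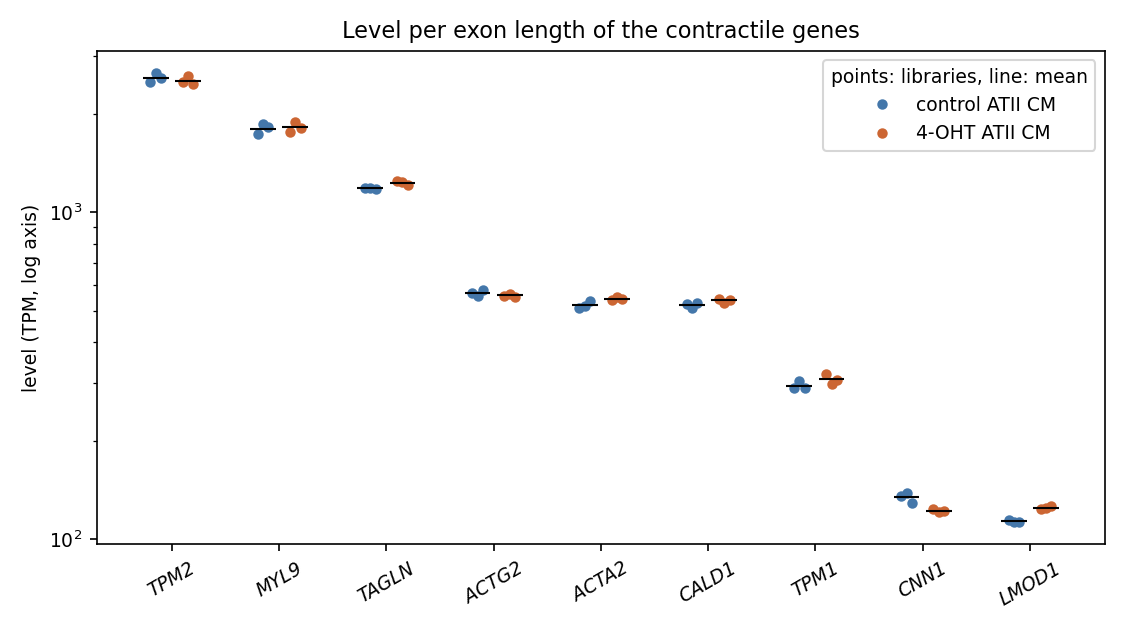
Level of the 9 tested contractile genes per exon length (TPM, log axis), with 1 point for each library, blue for control ATII CM and orange for 4-OHT ATII CM, and a black line at the mean of each group. *TPM2* was highest (2577 TPM in control ATII CM) and *LMOD1* lowest (114 TPM), while the points of both groups lay close together for each gene.

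The order of the levels was the same in both groups except at its close neighbours. *TPM2* led with 2577 ± 77.8 TPM in control ATII CM, followed by *MYL9* with 1801 ± 61.5 TPM and *TAGLN* with 1182 ± 6.13 TPM (SD, n = 3). *ACTG2*, *ACTA2* (521 TPM) and *CALD1* (520.3 ± 9.94 TPM) came next, and *ACTA2* and *CALD1* did not differ beyond their spread. *TPM1* stood at 294 ± 8.24 TPM, *CNN1* at 134 ± 4.82 TPM and *LMOD1* at 114 ± 1.07 TPM. *CNN1* lay above *LMOD1* in all 3 control libraries, whereas in 4-OHT ATII CM *CNN1* (122 ± 1.29 TPM) and *LMOD1* (125 ± 1.34 TPM) overlapped. The length used is that of all exons of a gene merged, which for *TPM1* (12876 bases) and *CALD1* (9843 bases) covers many isoforms and lowers the level per length. The order and shares of the other genes rest on merged lengths too, such as 3917 bases for *TAGLN* and 2821 bases for *MYL9*. The sum over the set was 7709.5 ± 132 TPM against 7762 ± 128 TPM (SD, n = 3), with overlapping groups.

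Of the 9 contractile genes tested, 1 passed the threshold (adjusted p under 0.05), *LMOD1*, which rose, and none fell. Among all genes tested, 5.72% passed, 2.95% higher and 2.76% lower in 4-OHT ATII CM. By direction alone 6 of the 9 were higher and 3 lower, with a median log2 fold change of 0.054 beside -0.0020 for all genes. At an unadjusted p under 0.05 there were 5 of the 9 (*LMOD1*, *TPM1*, *ACTA2*, *TAGLN* and *CNN1*), beside 17.3% of all genes. The groups did not overlap in 4 of the 9 (*LMOD1*, *TAGLN* and *CALD1* higher, *CNN1* lower), beside 22.1% of all genes. Bulk counts cannot tell fewer cells with a transcript from less of it per cell.

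**Figure D2:**
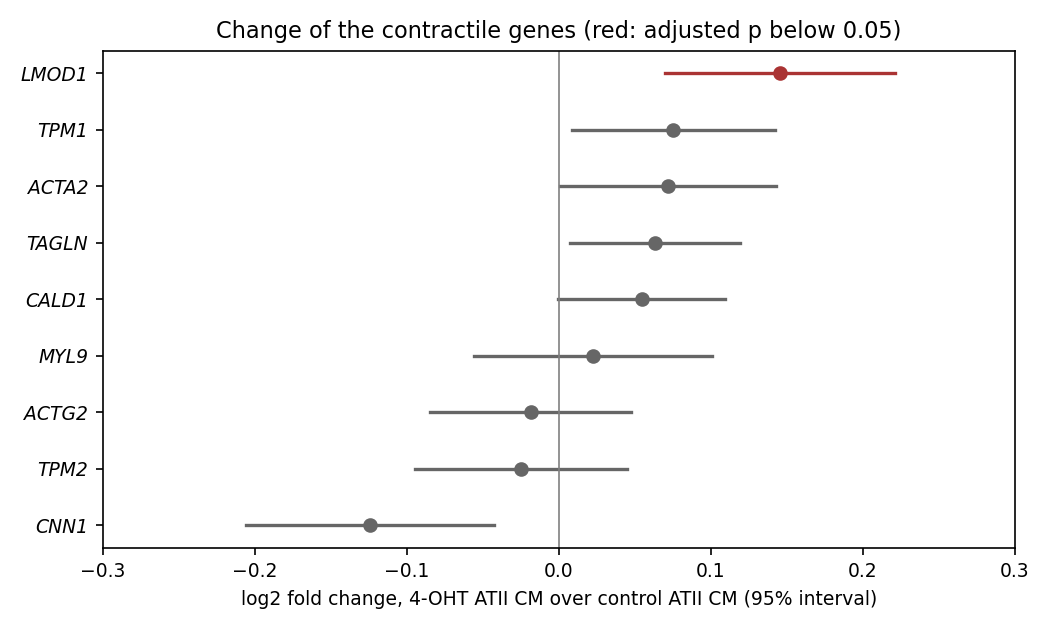
Log2 fold change of each tested contractile gene, 4-OHT ATII CM over control ATII CM (3 libraries each), with its 95% interval from the edgeR fit, and red where the adjusted p was under 0.05. *LMOD1* (0.15) alone was red, the intervals of *TPM1*, *ACTA2*, *TAGLN* and *CNN1* missed 0 without passing after adjustment, and no estimate was larger than 0.15 in size.

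*LMOD1* encodes leiomodin 1, which nucleates actin filaments in smooth muscle (ENSG00000163431, chr1:201896452-201946588, minus strand). It was at 111, 111 and 110.2 CPM in control ATII CM and at 119, 123 and 124 CPM in 4-OHT ATII CM. Every 4-OHT library lay above every control library, and the control libraries were almost equal, 110.5 ± 0.242 CPM against 122 ± 2.5 CPM (SD, n = 3). The rise was 10.6% with a 95% interval from 4.95% to 16.6% (log2 fold change 0.15, standard error 0.036, adjusted p = 0.0237, edgeR). The call is close to its limit. It held in 11 of 15 alternative analyses and was lost when control ATII CM replicate 1 (adjusted p = 0.0654), control ATII CM replicate 3 (0.111), 4-OHT ATII CM replicate 2 (0.110) or replicate 3 of the same group (0.133) was dropped, each from the edgeR fit. Without control ATII CM replicate 2 the adjusted p was 0.0113. An uncharacterised antisense gene, ENSG00000223774, shares 536 bases of its exons but had only 12 counts in all.

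*TAGLN* and *CNN1* belong to 1 protein family and stood on opposite sides. Transgelin (*TAGLN*, ENSG00000149591, chr11:117199321-117204782, plus strand) binds and bundles actin and is an early marker of smooth muscle. It was at 1129, 1141 and 1132 CPM in control ATII CM and at 1183, 1204 and 1168 CPM in 4-OHT ATII CM. All 4-OHT libraries lay above all control libraries, by 4.49% with a 95% interval from 0.529% to 8.62%, but the difference did not pass (adjusted p = 0.21, edgeR). Its exons share 446 bases (11.4%) with *PCSK7*, a proprotein convertase gene on the opposite strand, at 49.3 ± 2.92 CPM against 50.5 ± 0.569 CPM (SD, n = 3; log2 fold change 0.037). Transcripts of *TAGLN* in GENCODE release 44 matched those of *PCSK7* over up to 53.4% and those of ENSG00000280143 over up to 66% of their length, so reads from the matching stretches are uncertain.

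Calponin 1 (*CNN1*, ENSG00000130176, chr19:11538717-11550323, plus strand) inhibits the myosin ATPase on smooth muscle filaments and is a later marker. It was at 95.1, 98.3 and 91.4 CPM in control ATII CM and at 86.8, 87.2 and 87 CPM in 4-OHT ATII CM. All 4-OHT libraries lay below all control libraries and close to each other, 87 ± 0.202 CPM (SD, n = 3). The fitted difference was -8.25% with a 95% interval from -13.3% to -2.89%, and it did not pass (log2 fold change -0.12, adjusted p = 0.0765, edgeR), nor in any of the 15 alternatives (adjusted p 0.0631 to 0.214).

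Within the calponin and transgelin family *TAGLN* held the largest share of the summed TPM, 34.8% ± 0.454 in control ATII CM and 36.3% ± 0.317 in 4-OHT ATII CM (SD, n = 3). *CNN1* held 3.95% ± 0.115 and 3.62% ± 0.0206, while the non-muscle members *TAGLN2*, *CNN2* and *CNN3* made up nearly all the rest. No gene of the 6 tested in the family passed the threshold with edgeR, 1 did with DESeq2 and 1 with limma-voom, and 3 had an unadjusted p under 0.05 with edgeR, where the shares of all genes were 5.72% and 17.3%. By direction 4 were higher and 2 lower, and the median log2 fold change was 0.018. *TAGLN2* was nearest to the threshold, with a log2 fold change of -0.11 (adjusted p = 0.0544, edgeR).

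*CALD1* encodes caldesmon (ENSG00000122786, chr7:134744252-134970728, plus strand), which ties actin to myosin and restrains the ATPase. It was at 1255, 1235 and 1274 CPM in control ATII CM and at 1299.8, 1298 and 1311 CPM in 4-OHT ATII CM. The groups did not overlap, yet the distance was small, 3.85% with a 95% interval from -0.0445% to 7.9% (adjusted p = 0.294, edgeR). Gene counts do not separate the smooth muscle from the non-muscle isoform of caldesmon.

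*TPM1* (ENSG00000140416, chr15:63042632-63071915, plus strand) and *TPM2* (ENSG00000198467, chr9:35681992-35690121, minus strand) encode α- and β-tropomyosin, which lie along the actin filament of smooth muscle. *TPM1* was at 905, 964 and 915 CPM in control ATII CM and at 1003, 959 and 971 CPM in 4-OHT ATII CM. Control replicate 2 lay within the range of the 4-OHT libraries, while the other controls lay below it. The difference was 5.37% with a 95% interval from 0.615% to 10.4% (adjusted p = 0.213, edgeR). Without control replicate 2 it passed (log2 fold change 0.10, adjusted p = 0.0143, edgeR). *TPM1-AS*, an antisense RNA, shares 2070 bases of the *TPM1* exons but had 60 counts in all.

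*TPM2* was at 1975, 2129.5 and 2049 CPM in control ATII CM and at 1974, 2107 and 1968 CPM in 4-OHT ATII CM, with the highest and the lowest libraries of both groups side by side. The difference was -1.69% with a 95% interval from -6.34% to 3.18% (adjusted p = 0.777, edgeR), and without control replicate 2 the log2 fold change was 0.0034. It held 62.5% ± 0.556 of the summed tropomyosin TPM in control ATII CM and 61.2% ± 0.884 in 4-OHT ATII CM, and *TPM1* held 7.13% ± 0.0657 and 7.49% ± 0.325 (SD, n = 3). None of the 4 tropomyosin genes passed the threshold with edgeR or DESeq2 and 1 did with limma-voom, while 2 had an unadjusted p under 0.05 with edgeR, where 5.72% of all genes passed and 17.3% had such a p. By direction 2 were higher and 2 lower (median log2 fold change 0.025).

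*MYL9* encodes the regulatory light chain of smooth muscle myosin (ENSG00000101335, chr20:36541484-36551447, plus strand). It was at 1187, 1290.1 and 1258 CPM in control ATII CM and at 1207, 1326 and 1262 CPM in 4-OHT ATII CM. The spread within each group was wider than the distance between them. The difference was 1.58% with a 95% interval from -3.79% to 7.25% (adjusted p = 0.827, edgeR), and its sign turned without control replicate 1 (log2 fold change -0.013) and without 4-OHT replicate 2 (-0.014).

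*MYH11*, the smooth muscle myosin heavy chain and the strictest marker of mature smooth muscle (ENSG00000133392, chr16:15703172-15857033, minus strand), had 0, 1 and 0 counts in control ATII CM and 1, 0 and 0 counts in 4-OHT ATII CM. It was not tested. These counts cannot be safely read as a level, since GRCh38 holds a second copy of the region. All 20 protein-coding genes from 1 Mb before to 1 Mb after *MYH11*, itself included, have a near-identical copy on the same alternate contig. Whether the genome used for mapping held that contig is not given in the sources used here. *NDE1*, a centrosome gene that overlaps *MYH11* on the other strand, had 2 counts over the 6 libraries. Of the 20 genes, 4 had fewer than 10, *MYH11* and *NDE1* included. *ABCC1*, in the same region, had 6498. Reads that map equally well to both copies may have been left out of the counts, and whether they were was not tested. Absence of the *MYH11* transcript and loss of such reads cannot be told apart here. None of the other 9 genes had such a copy on the 261 alternate contigs searched.

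**Figure D3:**
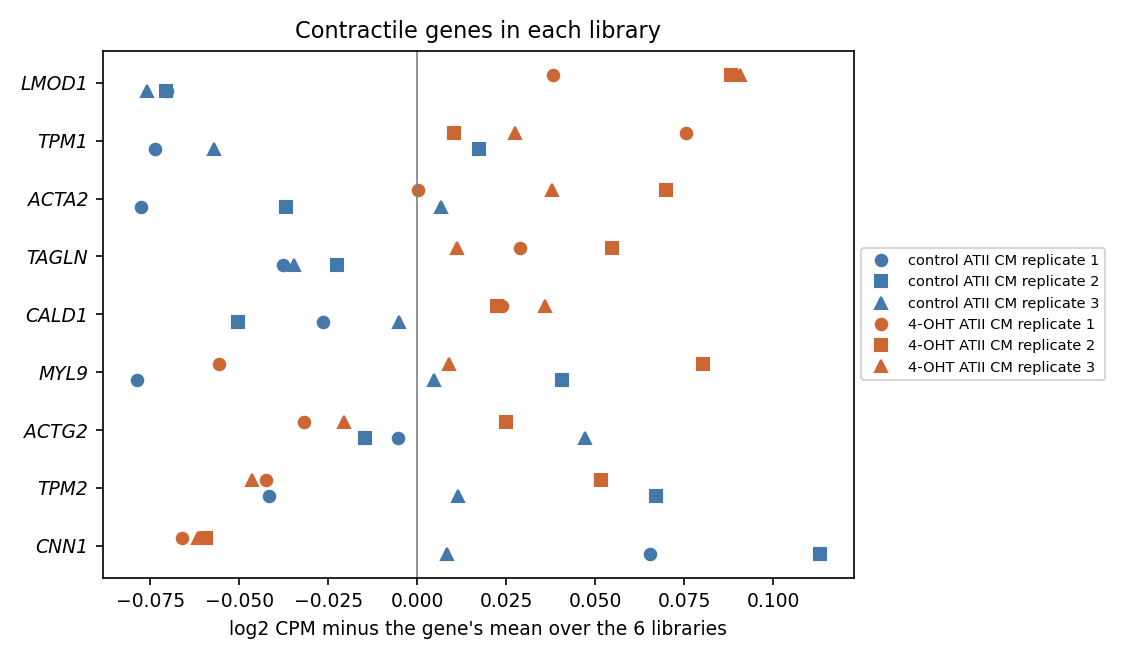
Deviation of each tested contractile gene in each library from the gene's own mean (log2 CPM), with blue for control ATII CM and orange for 4-OHT ATII CM, and circle, square and triangle for replicates 1, 2 and 3. In *LMOD1*, *TAGLN* and *CALD1* all orange points lie right of the blue ones, in *CNN1* all lie left, and in the other 5 genes the colours mix.

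The set did not rise or fall as 1 block. Control ATII CM replicate 1 was below the gene's own mean in 8 of the 9 genes (median deviation -0.042 on the log2 scale) and had the lowest value of all libraries in 4. 4-OHT ATII CM replicate 2 was above it in 8 of the 9 (median 0.052) and had the highest value in 3. The other 4 libraries were mixed, with 4 to 6 genes above. When each library was left out in turn, the log2 fold change of *ACTA2* ranged from 0.049 without control replicate 1 to 0.094 without 4-OHT replicate 1, with 0.053 without 4-OHT replicate 2 and 0.088 without control replicate 3.

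Across the 6 libraries the closest pairs were *TAGLN* and *CALD1*, with a root mean square difference of 0.024 between their centred log2 CPM values, *ACTA2* and *TAGLN* (0.030), *ACTA2* and *CALD1* (0.031), and *MYL9* and *TPM2* (0.032). *CNN1* and *LMOD1* were farthest from each other (0.14). These distances share the same 6 libraries and their depth, and describe only these libraries. Among 9201 genes with a mean of at least 10 CPM, those nearest to *ACTA2* included *GRINA* (0.0081) and *IFI16* (0.013). In likeness to *ACTA2*, *TAGLN* ranked 171, *CALD1* 209, *MYL9* 661, *LMOD1* 1006, *ACTG2* 1173, *TPM1* 1581, *TPM2* 2357 and *CNN1* 7155.

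Genes that work with this set were read from the same fit, in lists of the families and pathways around it. Of the 7 genes of the leiomodin and tropomodulin family, which cap and start actin filaments, 4 were tested and 2 rose, *LMOD1* and *TMOD1*, beside 2.95% of all genes (median log2 fold change 0.12). The count was 1 in 4 of the 6 fits that left out a library, those that lost *LMOD1*. *TMOD1*, which encodes tropomodulin 1, the cap of the slow-growing filament end, was at 13.4, 14 and 14 CPM in control ATII CM and at 17.1, 18.2 and 18.2 CPM in 4-OHT ATII CM. The groups lay well apart, a rise of 29.5% with a 95% interval from 16.9% to 43.5% (adjusted p = 0.00412, edgeR).

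Of the 11 genes of SRF, myocardin factors and their regulators, 2 rose and none fell in the edgeR fit, beside 2.95% and 2.76% of all genes (median log2 fold change of the list 0.0065). At an unadjusted p under 0.05 in the same edgeR fit there were 2 higher genes and none of the 5 lower ones. Among all 19072 genes tested, 1664 were higher and 1642 lower with such a p, together 17.3%. Myocardin (*MYOCD*), the SRF partner of smooth and cardiac muscle, was at 31.1, 27.5 and 33 CPM in control ATII CM and at 38, 37.9 and 37.5 CPM in 4-OHT ATII CM. All 4-OHT libraries lay above all controls, a rise of 23.5% with a 95% interval from 13.1% to 34.8% (log2 fold change 0.30, adjusted p = 0.00548, edgeR). Control replicate 2 was the lowest, and without it the log2 fold change was 0.24 (adjusted p = 0.00602, edgeR). *FHL2*, a LIM-only cofactor that binds SRF and had the highest TPM of the list, rose by 12.1% (338, 345 and 335 CPM against 388, 378 and 376 CPM, adjusted p = 0.00429, edgeR).

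The factors that myocardin works with or resembles did not pass. *SRF* itself averaged 101 ± 4.73 CPM in the control libraries and 99.6 ± 0.635 CPM in the others (SD, n = 3), a difference of -1.22% with a 95% interval from -6.89% to 4.8% (adjusted p = 0.885, edgeR). *MRTFA* (62.4 ± 1.35 against 61.9 ± 1.87 CPM, adjusted p = 0.939, edgeR) and *MRTFB* (18.3 ± 1.08 against 17.2 ± 0.831 CPM, adjusted p = 0.559, edgeR) did not pass in any alternative either. Both act by moving into the nucleus, which RNA levels do not show.

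Of the 9 myosin II chains, 7 were tested and 1 fell, beside 2.76% of all genes (median log2 fold change 0.016). *MYH9*, the non-muscle myosin IIA heavy chain that powers most of the contraction of a fibroblast, was at 2049, 1738 and 2069.8 CPM in control ATII CM and at 1671, 1657 and 1654 CPM in 4-OHT ATII CM. Control replicate 2, the library apart on the first principal component, lay nearest to the 4-OHT libraries, which were almost equal. The fitted difference was -15% with a 95% interval from -20.7% to -8.76% (adjusted p = 0.00755, edgeR), and it passed in all 15 alternatives. *MYL9* had the highest TPM of the list.

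The 25 genes of actin cross-linking and adhesion partners included 6 that fell and 2 that rose, and the median log2 fold change was -0.068. The groups did not overlap in 15 of the 25, 12 lower and 3 higher, beside 22.1% of all genes, and 5.72% of all genes passed the threshold. Filamin C (*FLNC*), the muscle filamin, fell by 21% (95% interval -25.7% to -15.9%). Its values were 613, 544 and 601 CPM in control ATII CM and 479, 446 and 465 CPM in 4-OHT ATII CM, with no overlap (adjusted p = 0.000163, edgeR). The abundant filamin A (*FLNA*) fell from 4131 ± 194 to 3763 ± 30.3 CPM (SD, n = 3; adjusted p = 0.0118, edgeR). *FLNA* did not pass without 4-OHT replicate 2 (edgeR adjusted p = 0.0553) or 3 (0.0695).

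Decreases were also found in *ZYX* and *TLN1*, which encode the focal adhesion proteins zyxin and talin 1, and in *SMTN*, which encodes smoothelin, a protein of contractile smooth muscle. Their log2 fold changes were -0.14, -0.15 and -0.15 (adjusted p = 0.0254, 0.0376 and 0.0438, edgeR). *ZYX* did not pass without 4-OHT replicate 1, 2 or 3 (edgeR adjusted p = 0.122, 0.0857 and 0.0925). *TLN1* did not pass when any library but control replicate 2 was left out (edgeR adjusted p 0.0849 to 0.157), nor *SMTN* when any but control replicate 1 was (0.0554 to 0.206). *SMTN* also missed the threshold with DESeq2 (adjusted p = 0.0563) and with GC and length correction (edgeR adjusted p = 0.0995), and *TLN1* on counts thinned to the smallest library (edgeR adjusted p = 0.0517). *FLNC*, by contrast, passed in all 15 alternatives. *TMSB4X*, the monomer-binding thymosin β4 and the gene of the list with the highest TPM, did not pass (log2 fold change -0.017).

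Upward, *FHL1*, a LIM-only protein of striated and smooth muscle, was at 317, 319 and 321 CPM in control ATII CM and at 381, 373 and 381 CPM in 4-OHT ATII CM. These groups were far apart, a rise of 18.5% with a 95% interval from 13.3% to 23.9% (adjusted p = 0.000162, edgeR). *FBLIM1*, which encodes the filamin-binding adhesion protein migfilin, rose from 232 ± 7.51 to 255 ± 3.97 CPM (SD, n = 3; adjusted p = 0.0262, edgeR), but it passed only without control replicate 2 (edgeR adjusted p = 0.00146) among the fits that left out 1 library, the others giving 0.058 to 0.137. The list therefore held changes in both directions, and the largest were several times those of *ACTA2* or *TAGLN*.

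**Figure D4:**
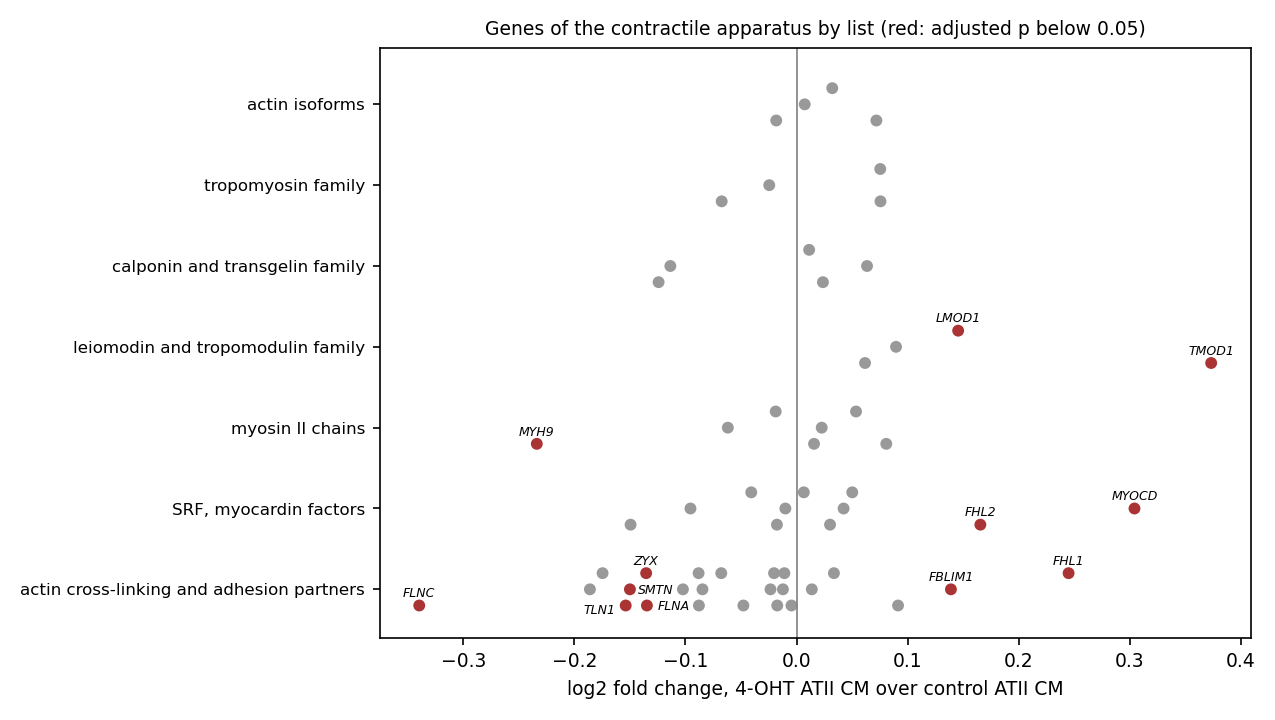
Log2 fold change (4-OHT ATII CM over control ATII CM) of tested genes in 7 lists around the contractile set, 1 row of points per list, shifted up or down only to keep points apart, with red and a name where the edgeR adjusted p was under 0.05. *TMOD1* (0.37) and *MYOCD* (0.30) lie farthest right and *FLNC* (-0.34) farthest left, and the actin, tropomyosin and calponin lists hold no red point. The tested genes *ACTC1* and *TAGLN3*, with a control mean under 1 CPM, and 1 adhesion partner are not shown.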

How the data were processed

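Poly(A) RNA of 6 MRC5 libraries was sequenced with paired ends by the submitters, with a kit that does not mark strand. Per the submitters' processing notes and methods, reads were trimmed with Trim Galore, mapped to GRCh38 with HISAT2 (version 2.1.0) and counted per gene with featureCounts (version 1.6.5). The authors deposited raw read counts per gene with merged exon lengths, which were used as they stand. The annotation release, the strand setting and the treatment of reads that map to several places are not given in the sources used here. The deposited table held 45 identifiers on both X and Y, which were summed, and no column of sample values was left out. Symbols were taken from GENCODE release 44, which named 58207 of 58676 identifiers, and gene coordinates from the deposited table.

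Genes with at least 10 counts over the 6 libraries were tested with edgeR (version 4.0.16, quasi-likelihood, TMM, group as the only term, R 4.3.3), with Benjamini-Hochberg adjustment over all of them and a threshold of 0.05. CPM are TMM-scaled and TPM use the deposited exon length. Intervals are at 95%. The steps were tested on simulated data. Replicate pairs of a group differed by 2.12 to 6.03 times the sampling noise (chi-square per degree of freedom), so none was a repeat deposit.

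The contractile genes and the lists were chosen with earlier results of these data known, so counts over them are descriptions. Genes named beside them are the called and the highest-TPM gene of each list, overlapping genes, *SRF*, *MYOCD*, *MRTFA*, *MRTFB* and the 3 genes most like *ACTA2*, of which some genes and 1 list are not reported here, while *TAGLN2*, *ACTG1*, *CNN2*, *CNN3*, *ABCC1*, ENSG00000280143 and single markers were named after their values were seen. The 15 alternatives were DESeq2 (version 1.42.0), limma-voom (limma 3.58.1), RLE or upper quartile scaling, no filter or filterByExpr, a replicate block, thinning to the smallest library, leaving out each library, and a GC and length correction, the last chosen after seeing the data.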

Additional observations from a re-analysis of the deposited data

How the results depend on the processing

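Tool, scaling, filter, thinning and GC correction left 1 contractile gene past the threshold (*LMOD1*), among 948 to 1601 genes in all. Leaving out each library in turn gave 0 to 2 contractile genes and 533 to 1530 genes in all, fewest without 4-OHT ATII CM replicate 2 and most without control ATII CM replicate 2. The log2 fold change then ranged from 0.13 to 0.17 for *LMOD1*, 0.055 to 0.10 for *TPM1*, -0.014 to 0.060 for *MYL9*, -0.059 to 0.0034 for *TPM2*, -0.044 to 0.020 for *SRF* and -0.031 to 0.017 for *MRTFA*, and was 0.0011 for *MRTFA* with GC and length correction. The genes past the threshold then numbered 2 to 11 among cross-linking and adhesion partners (8 with all libraries), 1 to 2 in myosin II chains and in leiomodins and tropomodulins, 0 to 2 in tropomyosins and 0 to 1 in calponins and transgelins. Calponins and transgelins had 1 with DESeq2, limma-voom, filterByExpr or GC and length correction, and tropomyosins had 1 with limma-voom. The cause was not tested.

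Samples with the same replicate number did not deviate together (correlations -0.104 to -0.0145, 0 of 3 numbers best with their own). With 3 libraries per group this cannot tell whether they were paired, and the labels do not say. A replicate block gave 985 genes and 1 contractile gene.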
